A study of Mus musculus with 9 samples.

Results

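The lower step of the Myc range, from Low to Medium, was measured in mouse embryonic stem (ES) cells, a cultured pluripotent cell type derived from the early embryo. The comparison takes the 3 Medium libraries against the 3 Low libraries, 6 of the 9 libraries in the series, over all 13499 genes of the deposited table. The 3 High libraries enter the estimate of the spread and a comparison of the steps. They also enter values taken over all 9 libraries, such as the mean level, the length trend and the principal components. All groups were C57BL/6 ES cells kept on gelatine-coated plates in a serum-replacement ES medium with LIF, the cytokine that holds mouse ES cells in self-renewal. No group differed by treatment or time. The cells were separated by cytometry on the fluorescence of GFP-Myc or of EYFP, and the labels do not assign a reporter to each library, so a reporter tied to Myc protein and a reporter of another kind cannot be told apart here. The groups are named Low, Medium and High C-myc, each with 3 biological replicates.

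Myc is a basic helix-loop-helix transcription factor that binds DNA as a dimer with Max, most tightly at the E-box CACGTG, and raises the transcription of many genes for ribosome production, metabolism and growth. Mad family proteins (Mxd1 to Mxd4) and Mnt bind Max at the same sites and repress. In ES cells, Myc and its relative Mycn act downstream of LIF and STAT3 and sustain self-renewal.

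Because Myc acts through the E-box, the promoters of genes named below were searched for it. The 5 stretches of 80 bases that follow lie upstream of genes that changed between Low and Medium and show where the motif, in capitals, sits in genes that rose (Gbx2, Klf4 and Bmp4) and in genes that fell (Gadd45g and Mxd4).
Gbx2: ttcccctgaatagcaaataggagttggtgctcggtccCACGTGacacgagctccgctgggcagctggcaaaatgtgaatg
Klf4: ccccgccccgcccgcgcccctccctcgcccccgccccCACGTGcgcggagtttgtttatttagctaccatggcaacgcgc
Bmp4: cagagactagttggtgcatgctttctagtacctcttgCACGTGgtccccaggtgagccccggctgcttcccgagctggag
Gadd45g: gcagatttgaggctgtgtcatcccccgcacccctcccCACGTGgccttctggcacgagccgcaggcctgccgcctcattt
Mxd4: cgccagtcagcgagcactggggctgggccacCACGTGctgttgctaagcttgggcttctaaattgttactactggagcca
They are RefSeq sequences on GRCm38.p6, written 5′ to 3′ on the strand of the gene. The Gbx2 stretch is chr1:89931208-89931287 on the minus strand, with the motif 74 bases before the annotated start. The Klf4 stretch is chr4:55532615-55532694 on the minus strand, with the motif 182 bases before the annotated start. The Bmp4 stretch is chr14:46390815-46390894 on the minus strand, with the motif 188 bases before the annotated start. The Gadd45g stretch is chr13:51846496-51846575 on the plus strand, with the motif 142 bases before the annotated start. The Mxd4 stretch is chr5:34187881-34187960 on the minus strand, with the motif 219 bases before the annotated start. CACGTG reads the same on both strands. It was present in the 300-base window (250 bases before to 50 after the start) of 10.4% of 7738 tested genes with a single RefSeq window, and in 7.15% of all 32851 RefSeq windows of that length. Among genes that were higher in Medium the share was 10.05% (43 of 428), and among genes that were lower it was 8.52% (39 of 458). Of the windows of ribosome biogenesis genes, 18 of 79 held it (22.8%), of p53 targets 3 of 13 (23.1%), of naive pluripotency factors 2 of 10 and of trophoblast genes 2 of 11. None of the 13 windows found for the 30 genes with the highest and lowest fold changes held it. The 5 printed stretches are examples picked from the named genes. Atic, Aars, Cdk6 and Sycp1, which rose, Knstrn, which fell, and Mnt, which did not pass, also held the motif upstream. The lists given here were likewise picked from the 38. A match describes the letters of the window only and is not a measured binding site.

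Myc RNA itself stood at 26.3, 27.6 and 24.2 in the Low libraries and at 70.0, 65.5 and 65.8 in the Medium libraries, in the authors' normalized read counts, a signal on nearly the CPM scale. The populations did not overlap, and Medium exceeded Low 2.58-fold (log2 fold change 1.33 ± 0.08 SE). The populations were sorted on a reporter and named for their Myc level, so this difference serves as a check of the labels and not as a finding. An exact two-sided permutation test gave p = 0.1, the smallest that 3 against 3 libraries allow. The values are scaled per library, with totals from 953055 (Low replicate 1) to 1026948 (Low replicate 2), so higher and lower mean relative to the other genes. In bulk RNA, fewer cells that express a gene and less RNA per cell cannot be told apart.

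Recovered reads numbered 11114936 to 16755566 per library. The Low libraries differed among themselves more than the Medium libraries did. On the first principal component of all 9 libraries (56.1% of the variance) Low replicates 2 and 3 stood at 0.66 and 0.47, Low replicate 1 at 0.12 and the Medium libraries between -0.18 and -0.04. Long transcripts ran above short ones in Low replicate 1 (log2 difference 0.28 between transcripts of at least 4729 nt and those of at most 2100 nt) and below them in Low replicates 2 and 3 (-0.59 and -0.27), against 0.30, -0.05 and 0.25 in Medium. Fold change therefore moved with transcript length (Spearman 0.38 across 13418 genes, which are not independent replicates), from a median of -0.20 in the shortest of 10 equal bins of genes to 0.29 in the longest. The part of this trend in single results was not tested; counts of list members after its removal are given beside the lists where they moved by over 1.5 times and beside some others. Removing the trend left a Spearman value of -0.03.

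**Figure D1:**
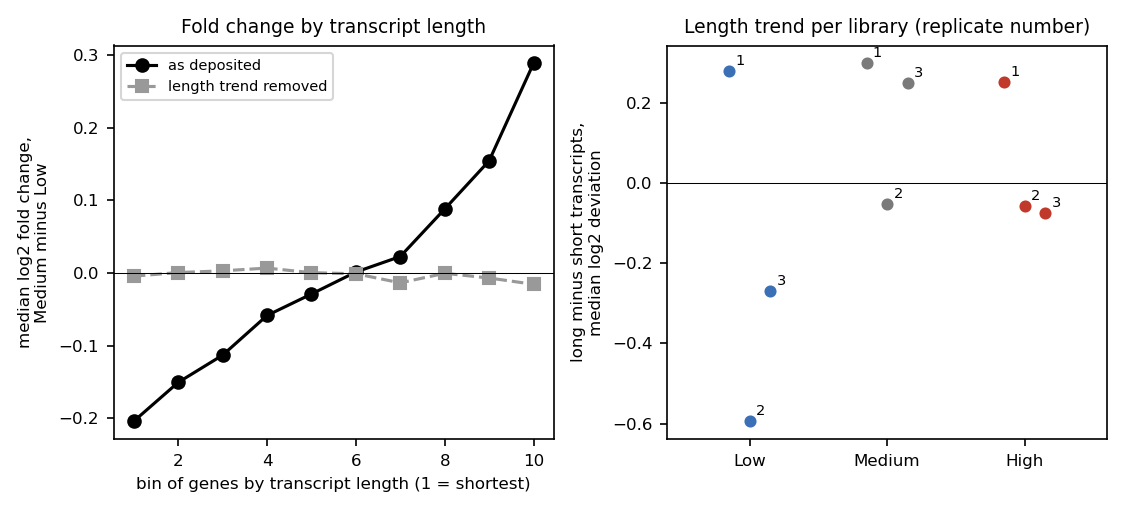
The left panel plots the median log2 fold change of Medium over Low in 10 bins of genes by transcript length, as deposited (circles) and with the length trend removed (squares). The right panel plots, for each library (labelled by replicate), the median log2 deviation of transcripts of at least 4729 nt minus that of transcripts of at most 2100 nt, and Low replicates 2 and 3 lie lowest at -0.59 and -0.27.

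Between Low and Medium, 1621 of 13499 genes changed (12.0%; limma, adjusted p under 0.05), 829 of them higher in Medium (6.14%) and 792 lower (5.87%). Of the 1621 genes, 99 (0.733% of all genes) rose and 77 (0.570%) fell 2-fold or more, judged on the log2 scale. At an unadjusted p under 0.05 there were 4223 genes. The Medium libraries lay wholly above or wholly below the Low libraries in 3995 genes (29.6%), and the genes named for the size of their change were required to be among them, so that their lack of overlap is no support of its own. Among the genes that passed, 823 of the 829 that rose and 791 of the 792 that fell did not overlap. For any of them, a lack of overlap thus adds nearly nothing to the call. The genes that rose had a median level of 38.4 and a median transcript length of 4154 nt. The genes that fell stood at 10.7 and 2643 nt, against 23.5 and 3287 nt over all genes. The median log2 fold change over all genes was -0.01. With the length trend removed, 2742 genes passed (20.3%), 11.1% of all genes higher and 9.20% lower. The count depended on single libraries. It was 5123 without Low replicate 1 (38.0%, of all genes 20.3% higher and 17.7% lower) and 922 without Low replicate 2 (6.83%, 3.59% higher and 3.24% lower). It was 527 without Low replicate 3. It was 716, 889 and 573 without Medium replicates 1, 2 and 3, and 1063 and 1065 without High replicates 2 and 3, which share the estimate of the spread. Without Low replicates 1 and 2 together 1598 genes passed (11.8%, of all genes 7.67% higher and 4.16% lower). Counts of list members are to be read beside these shares over all genes, in the main fit as under each setting.

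**Figure D2:**
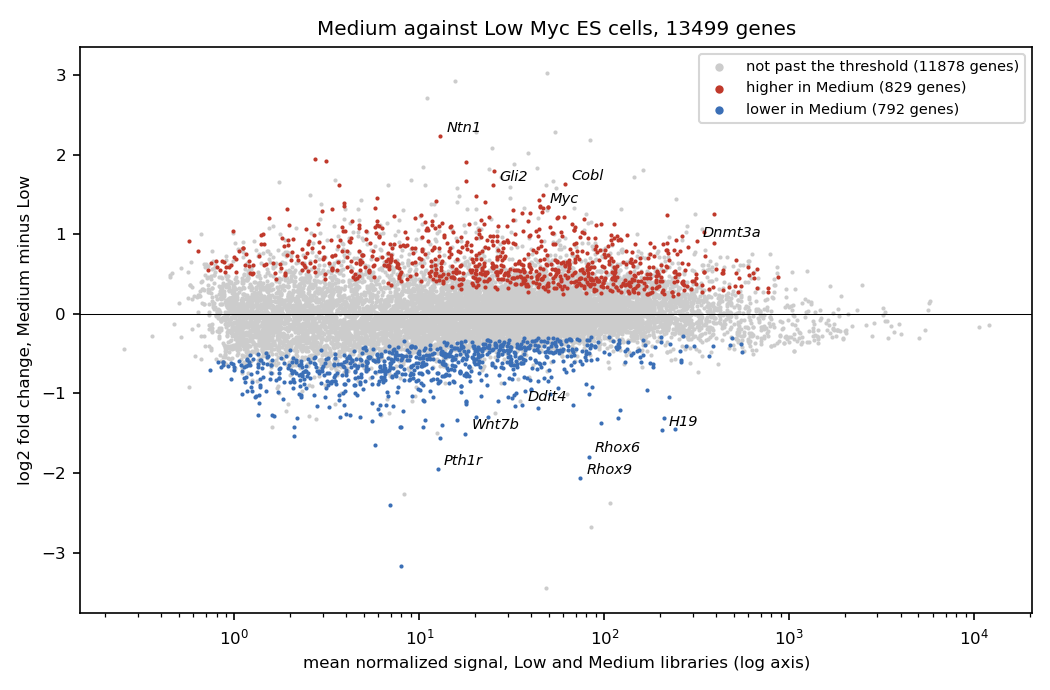
Each point is a gene, placed by its mean normalized signal over the Low and Medium libraries (log axis) and its log2 fold change, Medium minus Low. The 829 genes that were higher (red) and the 792 that were lower (blue) spread over the whole range of levels, with Ntn1 at 2.23 and Rhox9 at -2.06.

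On the log2 scale, Ntn1 rose most among the genes named by size of change. Ntn1, the axon guidance cue netrin-1 (chromosome 11, 68209364 to 68400823, protein-coding), measured 4.36, 3.58 and 3.82 in Low and 23.9, 18.97 and 23.3 in Medium. Every Medium library lay above every Low library, and the means differed 5.63-fold (log2 fold change 2.23 ± 0.12, limma adjusted p = 6.2e-05). Gli2, a transcription factor of the Hedgehog pathway (chromosome 1, 118834132 to 119053619), measured 14.4, 9.48 and 11.9 in Low against 37.6, 36.7 and 40.3 in Medium, a 3.21-fold rise (1.62 ± 0.13, adjusted p = 0.00019). Zfp423, a zinc finger transcription factor, rose 2.76-fold from 23.8, 21.4 and 25.2 to 63.1, 62.7 and 68.4. Neither gene's populations overlapped.

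Cobl, an actin nucleator, measured 35.3, 23.1 and 30.3 in Low and 104, 78.7 and 96.1 in Medium (log2 fold change 1.63 ± 0.16). The class I myosin Myo1f, the Roundabout receptor Robo4, the zinc finger gene Zmat4, the small GTPase Mras and the anchoring protein gene Akap2 rose by 1.48, 1.45, 1.42, 1.41 and 1.34 on the same scale. Nkx6-3, a homeobox gene, rose from 2.04, 1.52 and 1.75 to 5.46, 6.56 and 6.19. Inhbb, which encodes the beta B subunit of activin and inhibin, rose 2.57-fold, from 33.4, 25.5 and 24.97 to 75.2, 69.2 and 70.9. These genes passed without any one of the 9 libraries.

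Ttn encodes the giant muscle protein titin on a very long transcript. It measured 10.9, 5.01 and 5.49 in Low and 33.2, 20.5 and 31.8 in Medium. Its log2 fold change of 1.90 became 0.58 once the length trend was removed (adjusted p = 0.038). Ahnak, a large scaffold protein, and Setd1b, a histone H3K4 methyltransferase, had log2 fold changes of 1.49 and 1.35, and both had their highest Low value in replicate 1. The Ahnak call was lost without Low replicates 2 or 3 or Medium replicates 1 or 3 (adjusted p from 0.0539 to 0.0837). The Setd1b call was lost without any one library other than Low replicate 1 and High replicate 1 (0.0566 to 0.130). Notumos, annotated antisense to Notum, rose by 1.39; whether counting used strand is not given in the sources used here, so its reads cannot be told apart from those of Notum.

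On the same scale, Rhox9 fell most among those genes. Rhox9 (chromosome X, 37899097 to 37901770) measured 102, 139 and 119 in Low and 29.0, 30.3 and 24.4 in Medium. Low exceeded Medium 4.30-fold with no overlap (log2 fold change -2.06 ± 0.13, adjusted p = 8.2e-05). Rhox6, its neighbour in the reproductive homeobox cluster, measured 110, 148 and 127 against 37.6, 41.3 and 30.1 (-1.79 ± 0.15, adjusted p = 0.00020). Because the Rhox genes form a family of similar copies, the counting may have divided reads that fit more than one of them, and both values are uncertain to that degree.

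Pth1r, the receptor for parathyroid hormone and its related peptide, measured 20.97, 22.0 and 18.5 in Low and 3.94, 5.48 and 4.34 in Medium, 4.46-fold lower. Krt7, an epithelial keratin, measured 17.5, 21.6 and 20.04 against 5.94, 6.38 and 5.68, 3.28-fold lower. H19, an imprinted non-coding RNA (chromosome 7, 142575529 to 142578143, lincRNA), fell from 324, 295 and 289 to 118, 114 and 96.8 (-1.46 ± 0.10, adjusted p = 0.00011). In each of these genes the lowest Low library was above the highest Medium library.

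Wnt7b, a secreted Wnt ligand, fell 3.06-fold, from 29.6, 26.7 and 23.4 to 9.03, 8.72 and 8.30. Sdc4, the proteoglycan syndecan-4, was among the more abundant of these genes and fell from 287, 311 and 301 to 119, 131 and 112. The metallothionein gene Mt4, the autophagy gene family member Atg16l2, the lymphocyte antigen family gene Ly6g6e, Mbp and Ap3b2 fell by 1.42, 1.42, 1.40, 1.34 and 1.33 on the log2 scale. Mbp encodes myelin basic protein, and Ap3b2 a subunit of the AP-3 adaptor. Each of these genes passed with any one library left out.

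**Figure D3:**
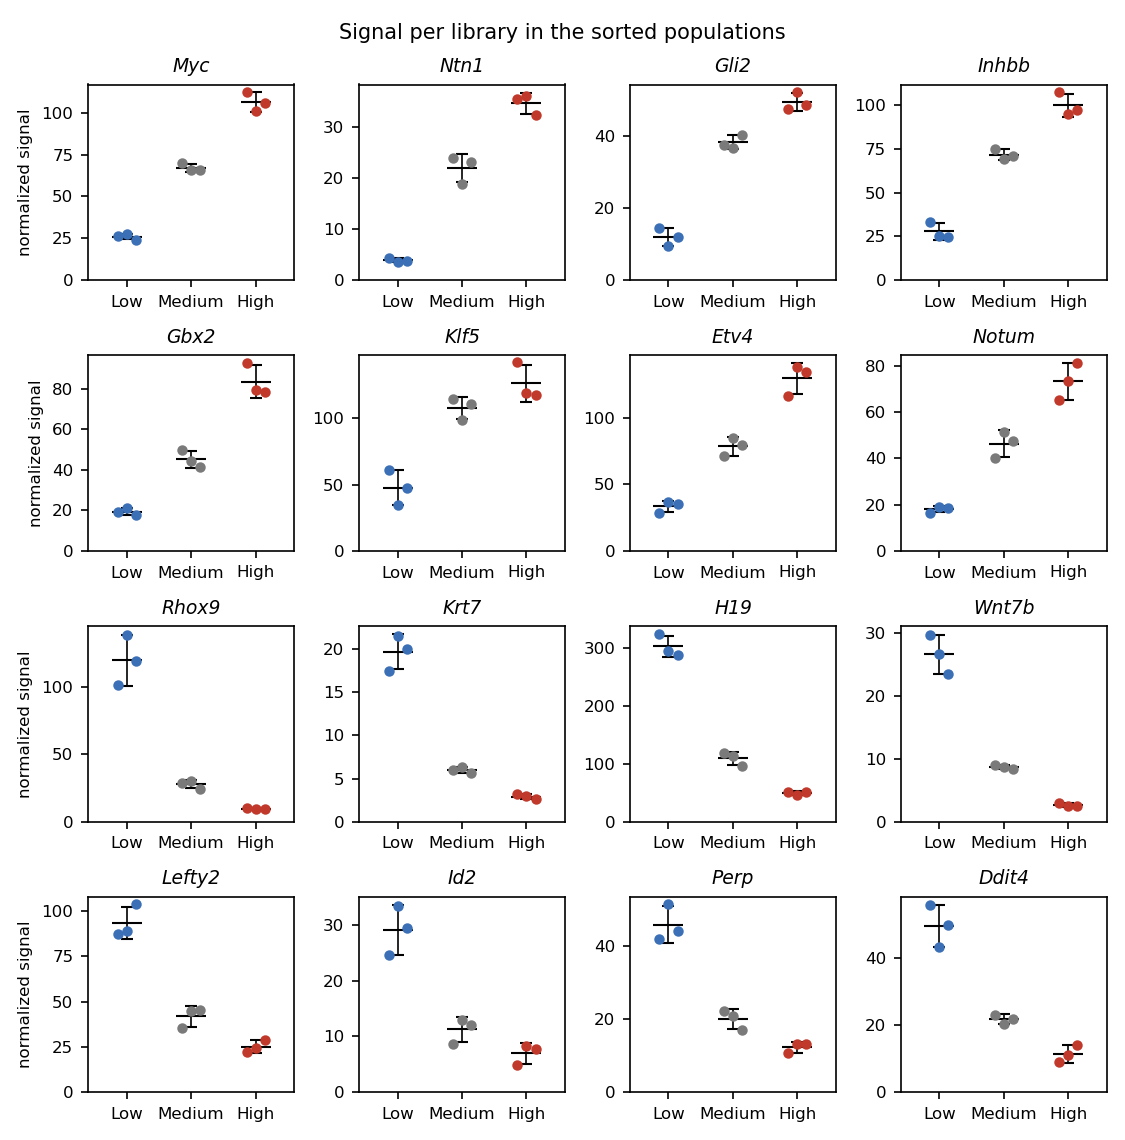
Normalized signal of 16 genes named in the text in the Low, Medium and High libraries; points are libraries (replicates 1 to 3 from left to right), the horizontal mark is the mean and the bar 1 SD (n = 3). The separation of Medium from Low points was required of the genes chosen by size of change; the panels show its size, with Ntn1 at 18.97 to 23.9 against 3.58 to 4.36.

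Of 13 measured genes of the Myc network, Myc with its partner and its competitors, 1 rose, Myc itself, and 1 fell, Mxd4, with a median log2 fold change of 0.08. Each was 7.69% of the list, against 6.14% higher and 5.87% lower over all genes. Mycn measured 247, 249 and 259 in Low and 233, 241 and 234 in Medium (-0.09, adjusted p = 0.39). Mycl (0.10, adjusted p = 0.43), Max (0.02, adjusted p = 0.88) and Mnt (0.08, adjusted p = 0.60) did not pass either. Mxd4, a Max-binding repressor, measured 4.50, 3.67 and 3.98 in Low and 2.79, 1.53 and 1.72 in Medium. Its call was lost without Low replicate 3 or Medium replicates 2 or 3 (adjusted p from 0.0720 to 0.0937). After length correction, 4 of the network rose and 1 fell.

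Of 22 Myc cofactors and regulators of Myc turnover, 2 rose (9.09%) and 0 fell (median 0.16), against 6.14% and 5.87% of all genes. Usp28, a deubiquitinase that stabilises Myc protein, measured 141, 93.2 and 110 in Low and 191, 157 and 171 in Medium. Wdr5, a chromatin cofactor that binds Myc, rose 1.21-fold. Usp28 lost its call without Low replicates 2 or 3, Medium replicates 1 or 3 or High replicate 2 (adjusted p from 0.0509 to 0.105). Wdr5 did so without any library other than Low replicate 1 and High replicate 1 (0.0555 to 0.0874). Without Low replicate 1, 8 of the 22 rose, and 6 with the length trend removed.

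Of 101 ribosome biogenesis genes measured, 15 rose, 0 fell and 86 did not pass, with a median log2 fold change of 0.18; the background shares were 6.14% higher and 5.87% lower. Mdn1 (an AAA ATPase of large subunit maturation), Heatr1 (a small subunit processome factor), Tcof1 (treacle, a cofactor of ribosomal RNA transcription) and Nvl (an AAA ATPase of the nucleolus) had log2 fold changes of 1.26, 0.68, 0.64 and 0.52. Mdn1 measured 415, 145 and 177 in Low against 615, 413 and 578 in Medium, so Low replicate 1 lay above Medium replicate 2. Without Low replicate 1, 43 members rose and 4 fell. The count was 0 without Low replicates 2 or 3 or Medium replicates 1 or 3, 3 without Medium replicate 2 or High replicates 2 or 3, and 7 without High replicate 1. The median stayed between 0.15 and 0.20 in all of these fits. After length correction, 46 rose and 0 fell, but Nvl lost its call (adjusted p = 0.078).

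Ncl, the nucleolar protein nucleolin and a textbook Myc target, measured 2403, 1952 and 2146 in Low and 3066, 2675 and 2615 in Medium (log2 fold change 0.36, adjusted p = 0.058). Its limma adjusted p was 0.00877 without Low replicate 1 and 0.63 with the length trend removed. Odc1, ornithine decarboxylase and another textbook target, measured 1113, 1298 and 1257 against 1308, 1255 and 1173 and did not pass (0.03, adjusted p = 0.85). The Ncl libraries did not overlap, whereas those of Odc1 did.

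Of 20 cytoplasmic aminoacyl-tRNA synthetases, the enzymes that charge tRNAs, 4 rose (Eprs, Lars, Aars and Mars, log2 fold changes of 0.56, 0.37, 0.34 and 0.30) and 0 fell, with a median of 0.15. The count was 7 without Low replicate 1, 1 without Medium replicate 2 or High replicate 1 and 0 without any other single library. In the length-corrected fit 8 rose, and Aars lost its call (adjusted p = 0.073). Of 29 genes of nucleotide and polyamine synthesis, Prps2, Atic and Umps rose (10.3%) and Rrm2 fell (3.45%), against 6.14% and 5.87% of all genes. Prps2, which makes phosphoribosyl pyrophosphate, measured 94.5, 87.0 and 98.9 in Low and 144, 134 and 127 in Medium (0.53 ± 0.08, adjusted p = 0.0039) and passed with any library left out. The purine enzyme Atic, the pyrimidine enzyme Umps and the ribonucleotide reductase subunit Rrm2 changed 1.23-fold, 1.19-fold and 1.24-fold. Atic lost its call without Low replicates 2 or 3 or any Medium replicate (adjusted p from 0.0545 to 0.0890), and Umps and Rrm2 without any library other than Low replicate 1 (0.0503 to 0.141). Corrected for length, 7 of the 29 rose and 1 fell, and Rrm2 did not pass (0.079).

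Of 21 glycolytic genes measured, 15 did not pass, 3 rose, the hexokinase Hk2, the phosphofructokinase Pfkm and the kinase Pdk1, and 3 fell, the lactate carrier Slc16a3 and the glucose carriers Slc2a1 and Slc2a3. Pfkm measured 40.0, 42.7 and 47.9 in Low and 62.7, 65.0 and 65.6 in Medium (0.56 ± 0.08, adjusted p = 0.0034). Slc16a3 fell from 66.2, 51.5 and 70.9 to 40.6, 34.5 and 38.3, and Slc2a1 from 458, 391 and 454 to 328, 274 and 297, neither with overlap. Hk2 had a log2 fold change of 0.81, and its call was lost without Low replicates 2 or 3 or Medium replicates 1 or 3 (adjusted p from 0.0538 to 0.0951). The Slc2a1 call was lost without Low replicate 3 (0.0501).

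None of 81 cytoplasmic ribosomal protein genes, 77 mitochondrial ribosomal protein genes, 76 oxidative phosphorylation genes or 13 mitochondrial genome transcripts passed in limma, with medians of -0.29, -0.15, -0.19 and -0.16. At an unadjusted limma p under 0.05 the counts were 1, 2, 4 and 1, in that order, and edgeR and DESeq2 each called 1 mitochondrial ribosomal protein gene, lower in Medium, and no gene of the other lists. The ribosomal protein genes have short transcripts (median 1094 nt), and their summed signal ran from 64419 to 106782 over the Low libraries against 64378 to 80408 over the Medium libraries, so the groups overlapped. Without Low replicate 1, 63 cytoplasmic ribosomal protein genes, 31 mitochondrial ribosomal protein genes and 43 oxidative phosphorylation genes were lower in Medium. With the length trend removed, the median of the cytoplasmic ribosomal proteins was -0.11 and 1 member was lower, 1 mitochondrial ribosomal protein gene rose, and 2 oxidative phosphorylation genes rose and 1 fell.

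Of 21 measured naive pluripotency factors, a list of genes that mark or maintain ES cells in their ground state, 13 rose, 1 fell and 7 did not pass, with a median log2 fold change of 0.49. Gbx2, a homeobox factor that sustains self-renewal downstream of STAT3 and whose promoter stretch is printed above, measured 19.1, 21.3 and 17.8 in Low and 49.7, 44.4 and 41.4 in Medium (2.33-fold, 1.18 ± 0.11, adjusted p = 0.00031). Klf5 rose 2.26-fold, from 60.7, 34.7 and 47.5 to 114, 98.3 and 110. The orphan nuclear receptor Nr0b1 rose 2.21-fold, from 53.5, 69.3 and 57.3 to 115, 150 and 133. The populations did not overlap in any of the 3 genes. Manba, Nr5a2, Tfcp2l1, Tbx3, Fgf4, Esrrb, Tdgf1, Dppa2 and Klf4 were among the others that rose. Fgf4 is also counted with the FGF and ERK targets, and Tdgf1 with the genes of Nodal, Lefty and activin signalling.

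Esrrb, an orphan nuclear receptor of the core network, measured 419, 318 and 352 in Low and 530, 499 and 515 in Medium (0.51 ± 0.10, adjusted p = 0.013). Klf4 rose 1.33-fold, from 95.2, 123 and 116 to 145, 149 and 152. Dppa3, also called Stella, went the other way, from 109, 169 and 138 to 52.5, 57.6 and 47.3 (-1.37 ± 0.16, adjusted p = 0.00095). The Esrrb call was lost without Low replicate 3 or Medium replicate 3 (adjusted p 0.0632 and 0.0533). Klf4 lost its call without Low replicate 3, any Medium replicate or High replicate 3 (0.0514 to 0.101). Tfcp2l1, with a log2 fold change of 0.89, did so without Low replicate 3 or Medium replicates 1 or 3 (0.0656 to 0.0753). The number of the list that rose was 8 without Low replicate 3 or Medium replicate 3, and between 9 and 14 without any other single library. With the length trend removed, 16 rose and 1 fell.

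Of 10 core pluripotency factors measured, 1 rose (10%) and 0 fell (median 0.18), against 6.14% and 5.87% of all genes. With the length trend removed 6 rose and 0 fell (median 0.23), against 11.1% and 9.20% of all genes. The member that rose in the main fit was the RNA-binding protein gene L1td1 (log2 fold change 0.59). Its call was lost without Low replicates 2 or 3 or Medium replicates 1 or 3 (adjusted p from 0.0535 to 0.0836). Pou5f1, which encodes Oct4, measured 969, 1255 and 1177 in Low and 1165, 1487 and 1222 in Medium (0.19, adjusted p = 0.38; 0.0063 with the length trend removed, at 0.36). Nanog measured 295, 300 and 268 against 297, 251 and 237 (-0.14, adjusted p = 0.36), and Sox2 446, 492 and 487 against 451, 473 and 450 (-0.05, adjusted p = 0.65). The libraries of all 3 genes overlapped.

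Primed epiblast genes mark the later state towards which ES cells exit. Of 15 measured, 3 rose (Dnmt3a, Foxd3 and Zic2) and 5 fell (Fgf15, Cldn6, Fgf5, Fgf8 and Otx2), with a median of 0.13, and with the length trend removed 5 rose and 5 fell. Fgf5 measured 6.83, 9.75 and 11.2 in Low and 4.12, 3.87 and 4.40 in Medium, and the claudin gene Cldn6 fell from 88.4, 126 and 117 to 48.9, 58.8 and 54.5 (-1.0 ± 0.14, adjusted p = 0.0026). Dnmt3a, a de novo DNA methyltransferase, rose from 236, 192 and 232 to 421, 402 and 416 (0.91 ± 0.09, adjusted p = 0.00042). Each of these populations was separate.

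Of 17 measured genes of the receptor chain and targets of LIF, the cytokine in the medium, 7 rose and 1 fell, with a median of 0.38. The receptor gene Lifr, the transducer Stat3 and the feedback inhibitor Socs3 had log2 fold changes of 0.52, 0.60 and 0.50 and rose, as did Klf5, Gbx2, Tfcp2l1 and Klf4, which also stand in the naive list, so the lists are not separate. Gadd45g, a growth arrest gene whose promoter stretch is printed above, fell from 27.6, 45.6 and 36.1 to 11.9, 20.9 and 16.8. Its call was lost without Low replicates 2 or 3 or Medium replicates 1 or 3 (adjusted p from 0.0655 to 0.0854). The number that rose was 2 without Low replicate 3 or Medium replicate 3, 3 without Medium replicate 1, 4 without Medium replicate 2 and 10 without Low replicate 1. In the length-corrected fit, 9 rose and 2 fell.

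**Figure D4:**
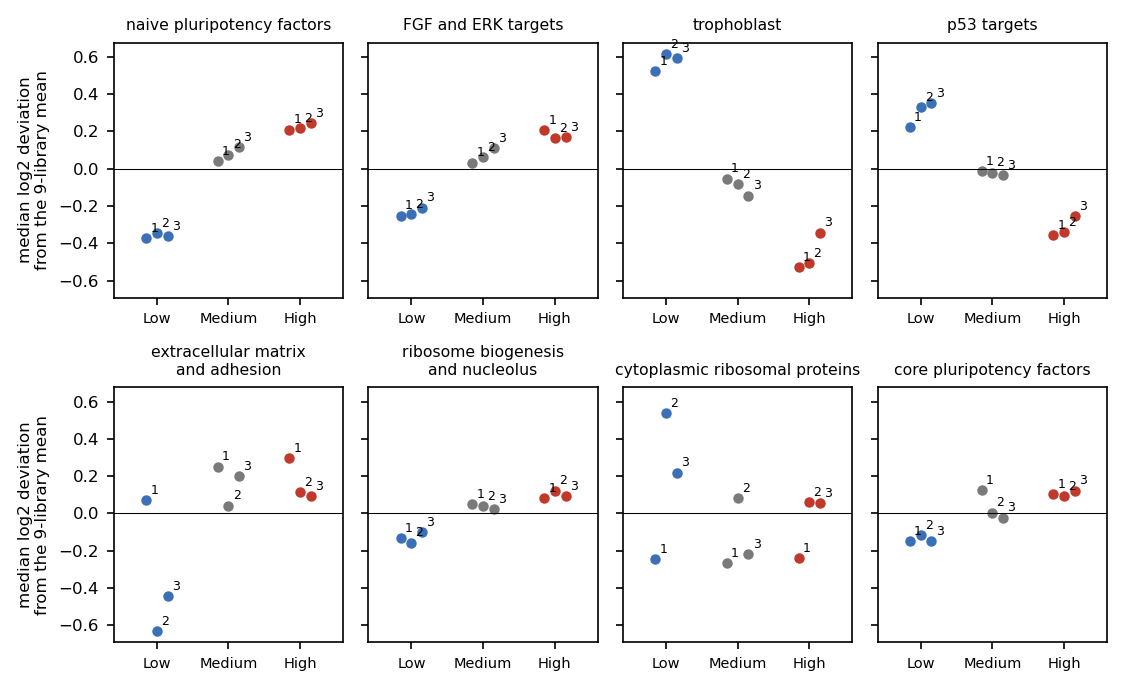
Each point is a library (labelled by replicate) and gives the median, over the measured members of a list, of the log2 deviation from the 9-library mean. Low libraries lie together for naive factors (-0.37, -0.35 and -0.36), FGF and ERK targets, trophoblast genes and p53 targets, and apart from each other for extracellular matrix (0.07, -0.63 and -0.44) and ribosomal proteins.

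FGF acts through ERK kinase in ES cells, and its targets include the feedback inhibitors of the same pathway. Of 18 measured genes, 9 rose and 2 fell, with a median of 0.32. The ligand Fgf4 had a log2 fold change of 0.54. Among the ETS factors and inhibitors, Etv4 measured 28.7, 36.7 and 35.1 in Low and 71.2, 85.3 and 79.7 in Medium (2.35-fold, 1.21 ± 0.12, adjusted p = 0.00039), and Spry4 51.3, 44.5 and 50.8 against 98.5, 82.5 and 94.0 (1.87-fold). Both were without overlap. Etv1, Il17rd, Dusp4, Spred1, Spred2 and Spry2 completed the 9, with log2 fold changes of 0.79, 0.65, 0.53, 0.43, 0.38 and 0.37. The receptor Fgfr2 fell from 75.7, 58.9 and 69.8 to 32.9, 32.8 and 34.0 (-1.01 ± 0.10, adjusted p = 0.00053), and the early response gene Ier3 fell 2.15-fold. The number that rose was 5 without Low replicate 3 or Medium replicates 1 or 3, while 2 fell without any one library.

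In the Wnt list, 3 of 16 measured genes rose and 1 fell, with a median of 0.18. Notum, a secreted inhibitor and target of Wnt signalling, rose 2.57-fold, from 16.5, 19.1 and 18.6 to 40.2, 51.3 and 47.6. Bmp4, a ligand counted in this list and in that of BMP genes, rose 2.08-fold, from 13.2, 13.9 and 14.1 to 27.1, 31.0 and 27.2 (1.0 ± 0.09, adjusted p = 0.00024). The cyclin Ccnd1 had a log2 fold change of 0.41, and its call was lost without Low replicates 2 or 3 or any Medium replicate (adjusted p from 0.0526 to 0.0937). The ligand Wnt7b was the member that fell. Sfrp1, a secreted Wnt antagonist outside the list, rose 2.16-fold, from 33.7, 29.3 and 33.4 to 70.7, 67.2 and 70.1.

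Of 19 genes of Nodal, Lefty and activin signalling, 3 rose and 3 fell (median -0.08). The ligand subunit Inhbb is given above, and the co-receptor Tdgf1 and the inhibitor Smad7 had log2 fold changes of 0.49 and 0.32. The Nodal antagonist Lefty2 measured 87.2, 89.2 and 104 in Low and 35.4, 44.9 and 45.3 in Medium (-1.14 ± 0.13, adjusted p = 0.0010). Its homologue Lefty1 measured 243, 398 and 423 against 83.2, 157 and 150, with replicate 1 lowest in both groups. Lefty1 lost its call without Low replicates 2 or 3 or Medium replicates 1 or 3 (adjusted p from 0.0611 to 0.104).

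Of 13 BMP and Id genes, 2 rose and 1 fell (median -0.03), and the Id genes, inhibitors of basic helix-loop-helix factors, went in opposite directions. Id1 measured 1.76, 3.49 and 2.62 in Low and 6.31, 5.57 and 5.23 in Medium, while Id2 fell from 24.5, 33.4 and 29.4 to 8.73, 13.0 and 12.1 (-1.30 ± 0.21, adjusted p = 0.0053). Id3 (log2 fold change -0.03) and Id4 (-0.27) did not pass.

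Of 18 measured trophoblast genes, which are characteristic of the placental lineage that ES cells rarely form, 12 fell, 1 rose and 5 did not pass, with a median log2 fold change of -0.66. Besides Rhox6, Rhox9 and Krt7 these were Ascl2, Fgfr2, Krt18, Gata2, Krt8, Esx1, Tfap2c, Krt19 and Rhox5, with log2 fold changes from -1.04 to -0.58. Ascl2, a basic helix-loop-helix factor of the placenta, measured 15.4, 20.04 and 13.5 in Low and 8.73, 6.47 and 6.89 in Medium. The transcription factor Tead4 rose (0.83). The summed signal of the 18 genes was 1083 to 1144 in Low, 663 to 801 in Medium and 487 to 524 in High, without overlap. Of the lineage's defining factors, Eomes (0.47, adjusted p = 0.070) and Gata3 (-0.58, adjusted p = 0.057) did not pass, and Cdx2, Elf5, Hand1, Tfap2a, Plac1 and Dlx3 were not analysed here. With single libraries left out the number that fell was lowest without Low replicate 3, at 8, and highest without Low replicate 1, at 14. With the length trend removed it was 13, and 3 rose.

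Of 11 primitive endoderm genes measured, 6 rose and 1 fell, with a median of 0.63. The laminin chains Lama1 and Lamc1, the collagen Col4a1 and the matrix protein Sparc rose, with log2 fold changes of 1.27, 1.02, 0.71 and 0.63. The transcription factors Sox7 (0.774, 0.805 and 1.11 in Low against 2.85, 1.89 and 3.38 in Medium) and Hhex (0.66) also rose, and the endocytic adaptor Dab2 had a log2 fold change of -0.58 and fell. Gata4, Gata6, Sox17 and Pdgfra were not analysed here. The number that rose was 3 without Medium replicates 1 or 3. The Lamc1 call was lost without Low replicate 3 or Medium replicates 1 or 3 (adjusted p from 0.0624 to 0.0715), that for Sox7 without Medium replicates 1 or 3 (0.0508 and 0.0567) and that for Col4a1 without Low replicates 2 or 3, Medium replicates 1 or 3 or High replicate 3 (0.0517 to 0.120).

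The basement membrane members are shared with the list of extracellular matrix and adhesion genes, where 10 of 29 rose and 2 fell (median 0.51). Nid1, the linker protein nidogen, measured 77.0, 49.7 and 56.4 in Low and 127, 104 and 120 in Medium, and the fibronectin receptor chain Itga5 69.2, 50.1 and 60.8 against 104, 95.5 and 105 (0.76 ± 0.11, adjusted p = 0.0033). Lama1 measured 32.9, 17.2 and 20.04 against 58.0, 51.2 and 57.6. Low replicate 1 was the highest Low library in all 3, though below Medium. The cell adhesion genes Cdh3 and Epcam, both epithelial, had log2 fold changes of -0.62 and -0.40 and fell. The list has long transcripts (median 5784 nt). The number that rose was 23 without Low replicate 1, 5 without Low replicate 2, 4 without Low replicate 3 or Medium replicates 1 or 3 and 6 without High replicates 2 or 3, and it was 15 with the length trend removed.

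Markers of other cells that the gates could hold were listed as well. Of 13 genes of fibroblasts and feeder cells, 1 rose (7.69%, against 6.14% of all genes), with a list median of 0.40. It was the intermediate filament gene Vim, from 69.2, 73.7 and 74.9 to 149, 143 and 143 (0.99 ± 0.08, adjusted p = 0.00019). The summed signal of the fibroblast list was 555 to 1013 in Low and 1054 to 1295 in Medium, of which fibronectin (Fn1) made up 417 to 865 and 830 to 1081. With Low replicate 1 left out, 7 of its 13 members were higher and 1 lower, against 20.3% and 17.7% of all genes. Of 10 neuroectoderm genes, Sox1, Olig2 and Pax6 rose, while the list's median was -0.03. Sox1, a neural progenitor factor, measured 7.32, 6.26 and 6.999 in Low and 16.1, 17.3 and 16.2 in Medium, and Olig2 18.8, 20.9 and 19.01 against 33.6, 31.5 and 33.1. The Pax6 call, at levels of 2.15 to 4.21, was lost without any library other than Low replicate 1 (adjusted p from 0.0525 to 0.164) and with the length trend removed (0.070). With that trend removed, 3 fibroblast genes and 2 neuroectoderm genes rose.

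Only 4 of 15 listed primitive streak genes and 2 of 15 listed genes of the 2-cell-like state were measured. T, Mixl1, Mesp1 and Dux were among those not found by name. Of the streak genes, Fgf8 and the repressor Snai1 fell, both below a signal of 7 in every library. Of the 2-cell-like genes, Zscan4f fell, from 1.48, 2.50 and 1.67 to 0.364, 0.899 and 0.511. These 3 calls were lost without Low replicates 2 or 3 or Medium replicate 3 (adjusted p from 0.0522 to 0.119), and the calls for Snai1 and Zscan4f without other libraries as well. Of 15 germline genes, Piwil2, Sycp1 and Dnmt3l rose and Prdm1 fell. Prdm1, a repressor that specifies germ cells, measured 44.0, 42.2 and 38.7 in Low and 31.4, 25.3 and 28.0 in Medium (-0.55 ± 0.10, adjusted p = 0.0084). The other 3 calls were lost without Low replicate 3 or any Medium replicate, with further libraries for each (0.0523 to 0.166). Corrected for length, 6 germline genes rose and 2 fell, 1 streak gene rose and 2 fell, and 1 of the 2-cell-like genes rose and 1 fell. The part that such cells have in any result was not tested.

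**Figure D5:**
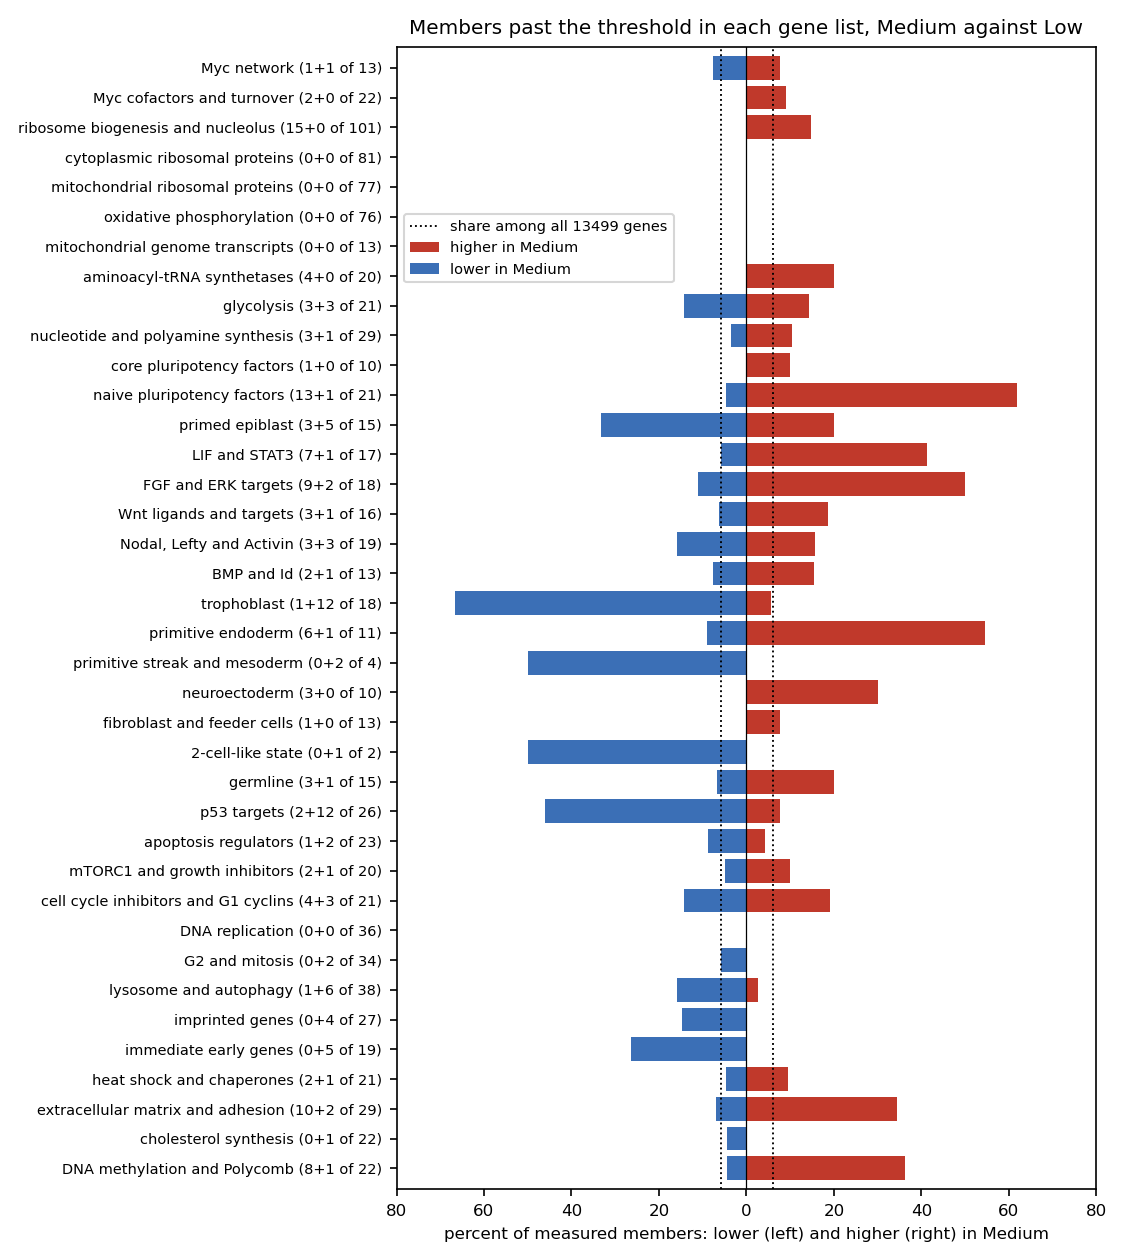
For each gene list, bars give the percent of measured members that were higher (right, red) and lower (left, blue) in Medium, with the counts as higher + lower of measured after the name. Dotted lines mark the shares over all 13499 genes, 6.14% higher and 5.87% lower; naive pluripotency factors reach farthest on the right and trophoblast genes on the left.

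Of 26 measured targets of p53, the tumour suppressor that halts the cycle or kills damaged cells, 12 fell, 2 rose and 12 did not pass, with a median of -0.33, while Trp53 itself measured 443, 525 and 510 in Low and 457, 482 and 451 in Medium (-0.08, adjusted p = 0.52). Perp, a membrane effector of cell death, measured 41.7, 51.3 and 44.1 in Low and 22.3, 20.8 and 16.9 in Medium (-1.16 ± 0.13, adjusted p = 0.0011). Ddit4, an inhibitor of mTORC1 also known as Redd1, measured 55.8, 43.3 and 49.7 against 23.2, 20.4 and 21.9 (-1.14 ± 0.16, adjusted p = 0.0027). Phlda3, an inhibitor of Akt, fell 1.99-fold, and Cdkn1a, the cycle inhibitor p21, fell 1.75-fold, from 41.8, 47.9 and 50.7 to 22.6, 30.4 and 27.2. None of the 4 overlapped between the populations.

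Btg2, Trp53inp1, Plk2, Ccng1, Eda2r, Mdm2, Tnfrsf10b and Ckap2 were the other targets of p53 that fell. Sesn1 (log2 fold change 0.42) and Ei24 (0.34) rose, and the cell death genes Bax (-0.32, adjusted p = 0.29), Bbc3 (-0.41, adjusted p = 0.15) and Pmaip1 (-0.23, adjusted p = 0.25) did not pass. The number of p53 targets that fell was 7 without Medium replicate 3, 8 to 14 without any other single library and 13 with the length trend removed. Sesn1 lost its call without Low replicates 2 or 3 or Medium replicates 1 or 3 (0.0727 to 0.0864). Of 23 apoptosis regulators, 1 rose (Hrk) and 2 fell, Bik among them. The shares were 4.35% and 8.70%, against 6.14% higher and 5.87% lower over all genes. Bik, a BH3-only protein, measured 7.46, 11.6 and 9.23 in Low and 2.55, 4.85 and 3.89 in Medium, and Hrk, another, rose from 2.25, 2.15 and 1.83 to 4.18, 4.04 and 3.83. Bik lost its call without Low replicate 3 (adjusted p = 0.0545). The length-corrected counts were 4 apoptosis regulators higher and 2 lower.

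Of 21 cell cycle inhibitors and G1 cyclins, 4 rose (Cdk6, Ccnd2, E2f2 and Ccnd1) and 3 fell (Rb1, Cdkn1a and Cdkn1b). Rb1, the retinoblastoma protein, measured 21.3, 22.0 and 23.3 in Low and 9.94, 11.6 and 12.7 in Medium (-0.91 ± 0.12, adjusted p = 0.0021). The kinase Cdk6 rose 2.05-fold from 7.11, 5.72 and 4.06 to 12.1, 11.1 and 11.4. Cdkn1b, the inhibitor p27, had a log2 fold change of -0.41. The Ccnd2 call was lost without any library other than Low replicate 1 (adjusted p from 0.0519 to 0.145). None of 36 DNA replication genes passed in limma (median 0.00). At an unadjusted limma p under 0.05 there were 11, 6 of them higher, while edgeR called 0 and DESeq2 called 5 (3 higher). Of 34 genes of G2 and mitosis, 0 rose and 2 fell (5.88%, against 5.87% of all genes), Ckap2 and Knstrn, by 1.28-fold each. Both calls were lost without Low replicate 3 or Medium replicate 3, and that for Knstrn also without Low replicate 2 or Medium replicates 1 or 2 (adjusted p from 0.0522 to 0.0967). Leaving out Low replicate 1, 9 of the 34 rose and 9 fell, against 20.3% of all genes higher and 17.7% lower. With the length trend removed 2 of the 34 rose and 5 fell, against 11.1% and 9.20% of all genes. Without Low replicate 1, 8 replication genes rose and 4 fell, and with the length trend removed 6 rose and 3 fell. The length correction gave 7 of the cycle inhibitors and G1 cyclins higher and 3 lower.

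Of 20 genes of mTORC1 and its inhibitors, Deptor and Sesn1 rose (10%) and Ddit4 fell (5%), near the 6.14% and 5.87% of all genes. Deptor measured 37.7, 21.7 and 27.0 in Low and 45.3, 39.9 and 45.5 in Medium. The Deptor call was lost without any library other than Low replicate 1 (adjusted p from 0.0584 to 0.155). After length correction, 4 of that list rose and 3 fell. Immediate early genes, which respond within minutes to growth factors and to handling, had 5 of 19 lower and 0 higher, with a median of -0.24. They were Ier3, Fos, Btg2, Zfp36 and Jun. Ier3 measured 22.5, 36.6 and 28.6 in Low and 12.9, 15.9 and 12.0 in Medium, and Btg2, an antiproliferative gene also listed with p53 targets, 23.2, 25.4 and 20.7 against 15.8, 11.7 and 12.4. Btg2 lost its call without Medium replicate 3 (0.0536), and the number that fell was 2 without Low replicate 2 or 3 or any Medium replicate and 3 without High replicate 2. After length correction 5 fell, without Fos (adjusted p = 0.065).

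Among 21 heat shock and chaperone genes, Hspa4 and Hspa1b rose (9.52%) and Bag3 fell (4.76%), near the 6.14% and 5.87% of all genes. Bag3, a co-chaperone of selective autophagy, measured 18.3, 20.2 and 20.8 in Low and 10.2, 10.3 and 11.04 in Medium (-0.85 ± 0.10, adjusted p = 0.0011). Hspa4 had a log2 fold change of 0.47, and its call was lost without Low replicate 3 or Medium replicate 1 (0.0751 and 0.0624). Hspa1b had a log2 fold change of 0.58, and its call was lost without any library other than Low replicate 1 (0.0547 to 0.133), in edgeR (0.0522) and in DESeq2 (0.0562). In the length-corrected fit, 4 of the list rose and 2 fell.

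Lysosome and autophagy genes included 6 of 38 that fell and 1 that rose (median -0.18). Grn, the precursor of the lysosomal granulins, measured 131, 140 and 141 in Low and 103, 99.9 and 106 in Medium (-0.41 ± 0.07, adjusted p = 0.0060). Ctsa, Atp6ap1, Psap, Mcoln1 and Sqstm1 fell by 0.46, 0.45, 0.40, 0.36 and 0.36 on the log2 scale, and Tfeb, the transcription factor of lysosome genes, rose by 0.40. The calls for Ctsa and Atp6ap1 were lost without Low replicates 2 or 3 or Medium replicates 1 or 3 (adjusted p from 0.0530 to 0.0918), and that for Tfeb without Low replicate 3 or any Medium replicate (0.0613 to 0.101). Leaving out Low replicate 1, 19 members fell, and with the length trend removed 10 fell and 2 rose. The number was 2 without Low replicates 2 or 3 or Medium replicates 1 or 3 and 4 without the other single Medium replicate or without High replicates 2 or 3.

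Of 27 imprinted genes, 4 fell and 0 rose (median -0.16). H19, Ascl2 and Sgce, a sarcoglycan gene, fell by 1.46, 1.04 and 1.02 on the log2 scale, and Ndn, the growth suppressor necdin, fell by 0.61. Sgce measured 6.19, 6.89 and 6.44 in Low and 2.73, 2.79 and 2.62 in Medium. The Ndn call was lost without Medium replicate 3 (adjusted p = 0.0713), and 10 members fell without Low replicate 1. Corrected for length, 7 fell and 1 rose.

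Regulators of DNA methylation and Polycomb had 8 of 22 higher and 1 lower (median 0.29), and with the length trend removed 10 higher and 2 lower (median 0.13). Beside Dnmt3a these included the DNA demethylating enzymes Tet2 and Tet1 (log2 fold changes of 1.05 and 0.89), the CpG island binding protein Kdm2b (0.98), and the PRC2 members Jarid2 and Eed (0.67 and 0.61). Kdm2b measured 95.8, 67.3 and 74.4 in Low and 169, 137 and 162 in Medium. Uhrf1 and Dnmt3l rose by smaller amounts, and the PRC2 accessory protein Phf19 had a log2 fold change of -0.69 and fell. The number that rose was 4 without Low replicate 3 and 5 without any one Medium replicate or without High replicates 2 or 3. Tet2 lost its call without Low replicate 3 (adjusted p = 0.0524), and Tet1 without any library other than Low replicate 1 and High replicate 1 (0.0541 to 0.156). Of 22 cholesterol synthesis genes, 1 fell (4.55%, against 5.87% of all genes) and 0 rose. The gene that fell was Mvd, 1.26-fold lower. Its call was lost without Low replicate 3 or any Medium replicate (0.0531 to 0.0842) and with the length trend removed (0.071).

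The upper step, from Medium to High, uses the same Medium libraries, so the values of both steps are only set side by side. In it 55 genes passed (0.407%). Of the 829 genes that rose from Low to Medium, 11 also rose from Medium to High, and of the 792 that fell, 41 also fell. Rhox9 had log2 fold changes of -2.06 in the lower step and -1.45 in the upper, Wnt7b -1.50 and -1.40, H19 -1.46 and -1.13, and Fgfr2 -1.01 and -1.05. Gbx2 had 1.18 and 0.87, Etv4 1.21 and 0.72, and Zfp423 1.43 and 0.62. Ntn1 had 2.23 and 0.64 (adjusted p = 0.055 in the upper step), and Gli2 1.62 and 0.36 (0.32). Klf5 had 1.19 and 0.22, and Esrrb 0.51 and 0.03.

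Whether the steps differ was tested gene by gene, as the distance of Medium from the midpoint between High and Low. No gene passed in limma (766 at an unadjusted p under 0.05, or 5.67%), edgeR gave 0 and DESeq2 gave 21. Without Low replicate 1, limma gave 68. The smallest p-values belonged to Ntn1 (adjusted p = 0.202), Sfrp1 (0.230) and Enox1 (0.599). Sfrp1 stood at 76.6, 70.6 and 69.4 in High, overlapping its 67.2 to 70.7 in Medium, and Enox1, a cell surface oxidase gene, at 33.5 to 38.1 in Low, 81.1 to 90.9 in Medium and 110 to 115 in High. A p that misses the threshold does not show that the steps are equal.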

How the data were processed

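RNA was sequenced from 9 sorted ES cell libraries, single-end with reads of 61 nt, per the labels' protocols. The authors deposited a table of normalized counts (unit: signal) for 13499 genes. Tools named in the submitters' processing notes are RSEM 1.17, limma, Picard and cutadapt, without their order. Build, annotation and strand: not given in the sources used here. In every library 100% of values were whole multiples of the worth of 1 read, within 0.001 read, and these steps gave the recovered reads. Unnamed genes (85) took 1.71% to 2.53% of each library's signal and stayed in.

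Groups came from the labels. The main test, in R 4.3.3, was limma 3.58.1 with its trended variance, fitted to log2(signal + 1 CPM of each library's own total) in all 9 libraries, with population as the only term. Genes needed 1 CPM in at least 3 libraries, which all 13499 had. P-values are two-sided and were adjusted by the Benjamini-Hochberg method over the whole table (threshold 0.05). Log2 fold changes carry the pseudocount and so understate weakly expressed genes; a value written as N-fold is a quotient of group means of the signal. Replicates are called biological by the labels and nothing more is said of their cultures, so p-values measure the spread between these libraries.

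The members, the 38 gene lists and the tests were chosen with earlier results of these data known. Named genes passed the threshold, did not overlap between Medium and Low and exceeded the 25th percentile of mean level (5.89): the 15 with the highest and the 15 with the lowest fold change, predicted genes, pseudogenes and unnamed genes passed over. To these were added, for each list, at most 4 passing members with the largest changes (or the 2 with the smallest p where fewer than 2 passed), with a fixed set of Myc family, pluripotency and target genes, and for the departure the 3 smallest p. Other list members are named from the lists' counts. Sfrp1 and Enox1 were named by the departure. A few genes that the rule names are not reported here.

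Coordinates, biotypes and the longest transcript per gene came from GENCODE M21 (GRCm38), where 13418 genes (99.4%) were found by identifier. On simulated data of 13499 genes for Medium against Low, the test found 16.4% of the genes set to a 1.5-fold change. It found 64.2% at 2-fold and 89.4% at 4-fold, and 7 of its 120 calls fell on genes left unchanged. The simulation drew each gene independently, with the same spread in all groups and no length trend, and changed genes in Medium alone. These shares therefore do not carry over to the calls in the real libraries. Alternatives covered the pseudocount, the filter, rescaling, quantile normalization, the variance model, the replicate block, transcript length, each library left out, and edgeR 4.0.16 and DESeq2 1.42.0 on the recovered reads. Fits without Low replicates 1 and 2 together, with length correction on the 6 libraries alone and with gene-by-gene sample weights were added after seeing the data.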

Additional observations from a re-analysis of the deposited data

How the results depend on the processing

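All 122 named genes that passed kept their sign in every alternative that gave them a value. The number of genes that changed between Low and Medium was 1621. It was 1386 to 2012 with other pseudocounts, filters, scalings and variance models and with edgeR (1490) and DESeq2 (2012) on recovered reads. It was 656 on the 6 libraries alone, 2742 with the length trend removed and 7044 with sample weights estimated gene by gene; the default sample weights did not converge and were not used. Leaving out a single library gave 527 to 5123. Among the named genes that passed, edgeR did not call Ccnd2, Fos, Deptor, Tcof1, Eprs, Pax6, Setd1b, Tet1, Mdn1, Zscan4f and Hspa1b, DESeq2 did not call Pax6, Mdn1 and Hspa1b, and the length correction did not call Nvl, Aars, Rrm2, Fos, Pax6 and Mvd. The departure of Medium gave 0 genes, and 21 with DESeq2, 2 with the length trend removed, 1153 with gene-by-gene weights and 0 to 68 with a single library left out. The cause of these differences was not tested, the fewer residual degrees of freedom of fits with fewer libraries included. Myc stood 2.49-fold to 2.66-fold higher in Medium with a single library left out.

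The labels number the replicates alike, but the numbers were not taken as pairs. Deviations of same-numbered Medium and Low libraries correlated at 0.24, 0.43 and -0.11, and Medium replicate 3 correlated best with Low replicate 1 (0.25). With a replicate block, 3656 genes passed, among them all 1621 of the main fit and all 122 named genes that passed there. With the block and the length correction 3831 passed, and the departure gave 1 and 2 in these fits. The fits with single libraries left out were made without the block. Depth limits mainly genes of low signal, where 1 read was worth 0.0606 to 0.0899.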

Other observations

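Genes on chromosome X were lower in Medium more often than genes on the autosomes, a pattern noticed after the values were seen and not tested. Of 514 X-linked genes, 55 were lower (10.7%) and 19 higher, against 737 of 12865 autosomal genes lower (5.73%). The median log2 fold change was -0.07 on X and -0.01 on the autosomes. With the length trend removed the shares were 14.6% and 9.06%. With Low replicate 3 left out, which gave the smallest numbers of the single libraries, they were 4.67% and 1.65%, and with Low replicate 1 left out, which gave the largest, 25.5% and 17.4%. Rhox5, Rhox6 and Rhox9 lie on X, as do Nr0b1 and Prps2, which were higher. Among non-coding genes, 11 of 226 lincRNA genes were higher and 10 lower, and of 150 antisense genes 6 were higher and 5 lower. Over all genes the shares were 6.14% higher and 5.87% lower.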
